A study of Mus musculus with 8 samples.

Results

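The transcripts of 10 integrin subunit genes were followed in sorted spinal cord microglia: the alpha subunit genes Itgam, Itgal, Itgav, Itga6, Itga4 and Itga9 and the beta subunit genes Itgb2, Itgb1, Itgb5 and Itgb3. They comprise Itgam, whose product CD11b marked the sorted cells, and further subunits chosen by name, many of which pair with each other. They are 10 of the 54532 genes in the deposited count table and 10 of its 26 integrin subunit genes. RNA was sequenced from 8 female mice, 1 library per mouse: 4 wild-type mice (WT, mice 503, 504, 506 and 527) and 4 mice of the knock-in labelled Cd11b-P2X4mCherryIN (KI, mice 513, 526, 528 and 549). P2X4, encoded by P2rx4, is an ion channel opened by ATP, and the title of the series places it in autoimmune inflammation of nervous tissue. The labels give neither age, treatment, disease nor batch for any mouse, and neither the promoter nor the Cre line behind the Cd11b part of the name. Living cells that were CD11b+, CD45low and Ly6C- were sorted, so Itgam is the gene of a sort marker in both groups.

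Integrins are adhesion receptors made of 1 alpha and 1 beta chain, and a chain usually leaves the cell's internal membranes only as part of a pair. The beta 2 chain pairs with leukocyte alpha chains: with alpha M it forms complement receptor 3 (Mac-1), through which microglia bind complement-coated material, and with alpha L it forms LFA-1, a receptor for ICAM proteins. The alpha v chain pairs with beta 1, beta 3 and beta 5 into receptors of vitronectin and related proteins, and beta 1 also pairs with alpha 6 (laminins), alpha 4 (VCAM1 and fibronectin) and alpha 9 (tenascin C and others).

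Between 45167483 and 54049801 reads per library fell on genes, and a gene with 0 reads could lie anywhere up to 3 reads, or 0.0555 to 0.0664 CPM. CPM is the count relative to library size, scaled by TMM, edgeR's correction for library composition. The summed level of 10 microglial markers was 33796 to 38619 CPM in WT and 32417 to 36612 CPM in KI, led by P2ry12, a purine receptor of microglia. Summed markers of oligodendrocytes reached 150.9 to 292 CPM over the 8 libraries. Those of astrocytes and neurons reached 313 to 386 CPM, of which Slc1a3 alone made up 299 to 369 CPM. Endothelial and pericyte markers summed to 41.4 to 56.4 CPM and those of border-associated macrophages to 5.29 to 25.8 CPM. For monocytes the sum was 7.81 to 44.1 CPM, led by Nr4a1 at 1.39 to 36.4 CPM. Of the other genes of the sort, Ptprc (CD45) averaged 1512 ± 18.5 CPM in WT and 1632 ± 129 CPM in KI (SD, n = 4 each; log2 fold change 0.11, edgeR adjusted p = 0.715), while Ly6c1 and Ly6c2 stayed between 0 and 0.805 CPM and were too low to test. P2rx4 averaged 792 ± 43.5 CPM in WT and 858 ± 62.7 CPM in KI (log2 fold change 0.11, edgeR adjusted p = 0.735); counts over a whole gene model do not separate a knocked-in copy from the endogenous one, so this level does not check the genotype labels.

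No member passed the test between KI and WT. In the edgeR quasi-likelihood test across 17291 genes, 0 of 10 members had an adjusted p under 0.05, and the same held for all genes (0% called). DESeq2 called 1.33% of these genes (229 of the 17261 to which it gave an adjusted p) and edgeR's likelihood ratio test 0.243%, and neither called a member. At an unadjusted p under 0.05, 2 members (Itgb3 and Itga9) were lower in KI and 0 were higher, against 4.56% and 3.23% of all genes, or 7.79% in either direction. The libraries of the groups did not overlap for 1 member, Itga9, which was lower in KI; 2.6% of all genes had this pattern in that direction and 4.94% in either. The median log2 fold change of the members was −0.06, against 0.00 over all genes tested, with 4 above 0 and 6 below. For 7 of the 10 members the 95% interval of the change lay within 1.5-fold in either direction, as it did for 38.6% of all genes; the exceptions were Itgb3, Itga4 and Itgal. In bulk libraries, fewer cells of a type and less RNA per cell cannot be told apart, which applies to every difference below.

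**Figure D1:**
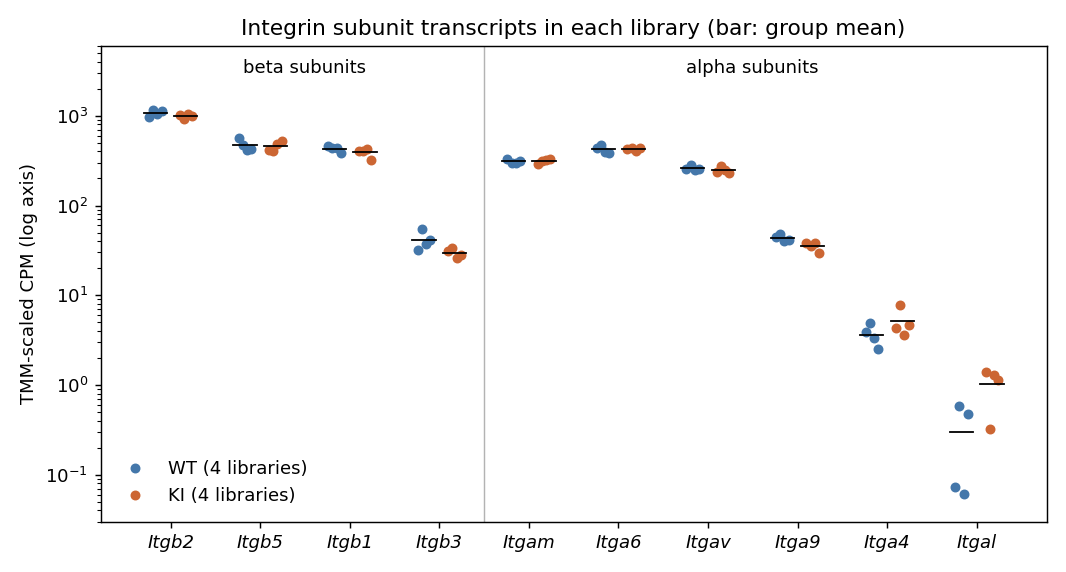
Levels of the 10 integrin subunit genes in each library, as TMM-scaled CPM on a log axis; points are the 4 WT and 4 KI libraries and bars are group means. Itgb2 lies between 925 and 1146 CPM, Itgal between 0.0604 and 1.38 CPM, and the KI points lie below all WT points for Itga9 alone.

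The promoters of 3 members are shown because these are the members with the highest levels among those for which the RefSeq table holds the annotated start (5 of 10; the table holds 6, and its entry for Itga9 starts 105002 bases away). Each is the 250 bases before the start on the plus strand of GRCm38.p6, and capitals mark GAGGAA or its reverse complement TTCCTC, a core of the kind bound by PU.1, the transcription factor of macrophages. The motif was searched on both strands and was chosen from general knowledge.
Itgam, chr7:128062390-128062639: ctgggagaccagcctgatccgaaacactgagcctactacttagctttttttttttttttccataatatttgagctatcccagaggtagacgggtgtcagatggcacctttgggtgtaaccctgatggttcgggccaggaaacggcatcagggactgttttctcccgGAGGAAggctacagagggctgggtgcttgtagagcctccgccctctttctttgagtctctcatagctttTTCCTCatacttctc
Itgb1, chr8:128685404-128685653: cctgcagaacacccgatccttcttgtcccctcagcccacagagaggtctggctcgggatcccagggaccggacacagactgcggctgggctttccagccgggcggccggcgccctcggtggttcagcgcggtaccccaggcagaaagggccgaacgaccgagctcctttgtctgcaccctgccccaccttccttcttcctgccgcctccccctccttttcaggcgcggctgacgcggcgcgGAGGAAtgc
Itgb5, chr16:33829415-33829664: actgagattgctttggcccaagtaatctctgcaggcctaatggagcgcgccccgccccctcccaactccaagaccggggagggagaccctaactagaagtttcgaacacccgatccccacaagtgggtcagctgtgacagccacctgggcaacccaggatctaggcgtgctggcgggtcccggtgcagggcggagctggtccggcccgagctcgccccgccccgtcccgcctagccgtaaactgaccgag
Itgam held the motif at 84 bases before the start on the plus strand and at 15 bases on the minus strand, Itgb1 held it at 9 bases, and Itgb5 held none. Itgav, the alpha v gene, held it at 218 and 7 bases, and Itga4 held none. The motif occurs in 23.3% of the 32851 promoters of the table, so a match is a description of these letters and not of a bound site. The window of Itgam held 6 CpG dinucleotides, the median of all promoters, while those of Itgb1 and Itgb5 held 21 and 18.

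Among the beta 2 integrins, Itgam (plus strand of mm10 chromosome 7, 128062640 to 128118491) held 329, 299, 300.0 and 312 CPM in WT 503, 504, 506 and 527, and at 290.0, 309.5, 325 and 329.8 CPM in KI 513, 526, 528 and 549. The groups overlapped. A log2 fold change of 0.02 was estimated (SE 0.0623, 95% interval −0.12 to 0.15; edgeR adjusted p = 0.978). Its coefficient of variation was 4.51% within WT and 5.71% within KI.

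Itgb2 (chromosome 10, 77530252 to 77565708, plus strand), the common beta chain of leukocyte integrins, was the most abundant member. Its WT libraries held 970.5, 1146, 1033 and 1116 CPM and its KI libraries 1019, 925, 1040.2 and 1003 CPM. The means, 1066 ± 79.7 and 997 ± 50.1 CPM, differed by a log2 fold change of −0.10 (SE 0.0653, 95% interval −0.24 to 0.05; edgeR adjusted p = 0.793), with both groups overlapping.

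The count of Itgam covers a minority of its exons. Of its 5024 exon bases, 3450 (68.67%) are also exon bases of Gm49368, a protein-coding gene on the same strand that the annotation tags as a read-through transcript, and a read that touches exons of both genes was counted for neither. Of the 1574 bases left to Itgam, 1186 form the last exon stretch of the gene and 244 lie in the exon stretch before it. Gm49368 itself held 1 to 20 reads per library, 44 in all. The overlap is the same in all 8 libraries and bears on the level of Itgam and on its place among the other subunits. The comparison of KI with WT rests on the unshared bases, most of them at the end of the gene. A difference confined to the shared exons would not be seen. The overlap was noticed after the values were seen. The same overlap was 5.9% of the exon bases for Itgav and 8.04% for Itga4, with genes on the opposite strand, and 0% for the other 7 members.

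**Figure D2:**
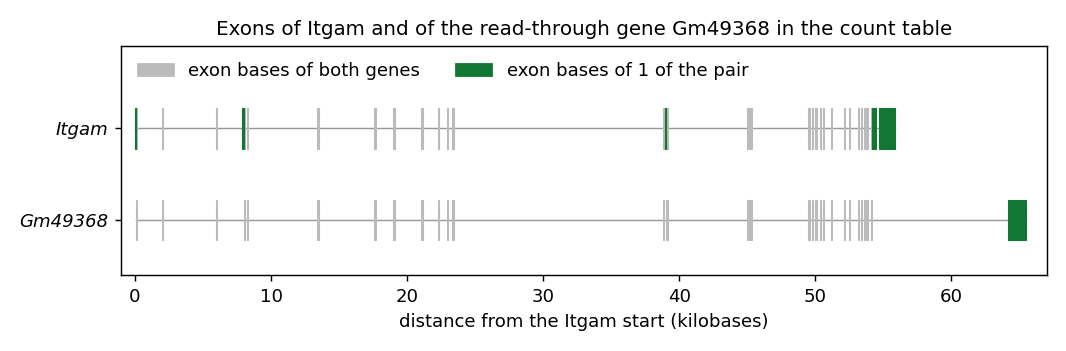
Exons of Itgam and Gm49368 as the count table lists them, drawn by distance from the start of Itgam in kilobases. Grey boxes are exon bases of both genes, which the counting gave to neither; green boxes are exon bases of 1 of the pair, 1574 bases for Itgam, most of them at its end.

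Itgal (chromosome 7, 127296260 to 127335138, plus strand), the alpha chain of LFA-1 in lymphocytes and other leukocytes, was the lowest member. It had 4, 27, 3 and 24 reads in the WT libraries (0.0732, 0.579, 0.0604 and 0.476 CPM) and 62, 17, 58 and 61 reads in the KI libraries (1.38, 0.320, 1.29 and 1.13 CPM). KI 513, KI 528 and KI 549 lay above every WT library, and KI 526 lay below WT 504 and WT 527. The log2 fold change of 1.79 was the highest of the members but had a 95% interval from −0.09 to 3.67 (SE 0.845; edgeR adjusted p = 0.667), and it ranged from 1.45 to 2.33 when single libraries were left out. On the log2(FPKM + 1) scale, which compresses changes of low genes, it was 0.15.

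Markers of cells that carry Itgal also varied between the libraries, and the lists differed in which libraries were high. The summed level of 10 neutrophil markers was 0.604 to 19.8 CPM in WT and 0.334 to 61.5 CPM in KI, with the high values in WT 504, KI 513 and KI 528; the most abundant, Ngp, was at 0 CPM in at least 1 library of each group, and 3 of the 10 were under 1 CPM in all libraries. WT 504 was also the WT library with the most Itgal, and KI 513 and KI 528 were the KI libraries with the most. The summed level of 12 lymphocyte markers was 0.773 to 4.10 CPM in WT and 0.315 to 5.70 CPM in KI. Of the 12, 9 were under 1 CPM in all libraries, and Ms4a1 was the most abundant. The highest sums were in WT 503, with 0.0732 CPM of Itgal, and KI 528, with 1.29 CPM of Itgal. The 10 monocyte markers summed to 7.81 to 28.9 CPM in WT and 10.7 to 44.1 CPM in KI. KI 513 (44.1 CPM) and KI 528 (43.3 CPM) were highest, and WT 506, with 0.0604 CPM of Itgal, was highest in WT. Of the 10, 4 were under 1 CPM in all libraries. The most abundant, Nr4a1, held 1.39 to 20.7 CPM in WT and 3.63 to 36.4 CPM in KI. Its mean was 15.4 CPM, so much of the monocyte sum came from 1 gene. Which cells the Nr4a1 RNA came from was not tested. KI 549, with 1.13 CPM of Itgal, held 0.334 CPM of the neutrophil list, 0.315 CPM of the lymphocyte list and 24.3 CPM of the monocyte list. The sort for CD11b+, CD45low and Ly6C- cells is set to leave such cells out, and their part in the counts of Itgal was not tested.

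Among the alpha v integrins, Itgav (chromosome 2, 83724397 to 83806916, plus strand) held 257, 281, 249 and 258 CPM in WT and 238, 278, 246 and 230.5 CPM in KI. The ranges overlapped, and the log2 fold change was −0.08 (SE 0.0729, 95% interval −0.24 to 0.09; edgeR adjusted p = 0.878). Of its beta partners, Itgb5 (chromosome 16, 33829665 to 33949338, plus strand), a chain of a vitronectin receptor, held 560.0, 469, 412 and 429 CPM in WT and 419, 403, 479.7 and 517 CPM in KI. The highest and the lowest library thus came from different groups, WT 503 and KI 526, but the ranges lay over each other, with a log2 fold change of −0.04 (SE 0.11, 95% interval −0.28 to 0.21; edgeR adjusted p = 0.968).

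Itgb3 (chromosome 11, 104608000 to 104670476, plus strand), which pairs with alpha v in many cells and with alpha IIb in platelets, had the lowest unadjusted p of the members. It held 31.8, 54.8, 37.6 and 40.9 CPM in WT and 31.1, 33.9, 26.0 and 28.2 CPM in KI. WT 504, WT 506 and WT 527 lay above every KI library, while WT 503 lay below KI 526. KI was lower by a log2 fold change of −0.47 (SE 0.167, 95% interval −0.84 to −0.10; edgeR unadjusted p = 0.0184, adjusted p = 0.573), which did not pass the test. Without WT 504 it was −0.30. The lowest adjusted p over the settings tried was 0.204, from DESeq2. The platelet list, 10 genes that include the alpha IIb gene Itga2b, summed to 19.3 to 22.3 CPM in WT and 12.6 to 21.3 CPM in KI. Its most abundant gene, Gp9, held 11.9 to 14.9 CPM in WT and 8.03 to 15.5 CPM in KI, 1 of the 10 had 0 reads in all libraries, and Itga2b had 2 to 28 reads per library. The part of platelet RNA in the level of Itgb3 was not tested.

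Among the other beta 1 integrins, Itgb1 (chromosome 8, 128685654 to 128733200, plus strand) held 459.6, 433, 435 and 386 CPM in WT and 400.0, 408, 431 and 324 CPM in KI. KI 549 was the lowest library and the rest overlapped, with a log2 fold change of −0.13 (SE 0.0917, 95% interval −0.34 to 0.07; edgeR adjusted p = 0.795). Itga6 (chromosome 2, 71745616 to 71858416, plus strand), a laminin receptor chain, held 442, 468, 392 and 388 CPM in WT and 421, 437, 401 and 434 CPM in KI. The KI libraries all lay inside the WT range, and the log2 fold change was 0.00 (SE 0.0715, 95% interval −0.16 to 0.16; edgeR adjusted p = 0.996).

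Itga9 (chromosome 9, 118606690 to 118901003, plus strand), which pairs with beta 1 alone, held 44.0, 48.5, 40.6 and 41.3 CPM in WT and 38.5, 35.3, 38.6 and 29.5 CPM in KI. Every KI library was below every WT library, with the nearest pair at 38.6 CPM (KI 528) and 40.6 CPM (WT 506). The difference of −0.30 in log2 (SE 0.116, 95% interval −0.56 to −0.04; edgeR unadjusted p = 0.028, adjusted p = 0.598) did not pass the test. Itga4 (chromosome 2, 79255426 to 79333123, plus strand), the chain of VLA-4 through which leukocytes bind VCAM1, was low, at 3.88, 4.85, 3.32 and 2.54 CPM in WT and 4.35, 7.87, 3.57 and 4.69 CPM in KI. KI 526 stood highest and the other libraries overlapped, with a log2 fold change of 0.49 (SE 0.317, 95% interval −0.21 to 1.19; edgeR adjusted p = 0.779), or 0.20 without KI 526.

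**Figure D3:**
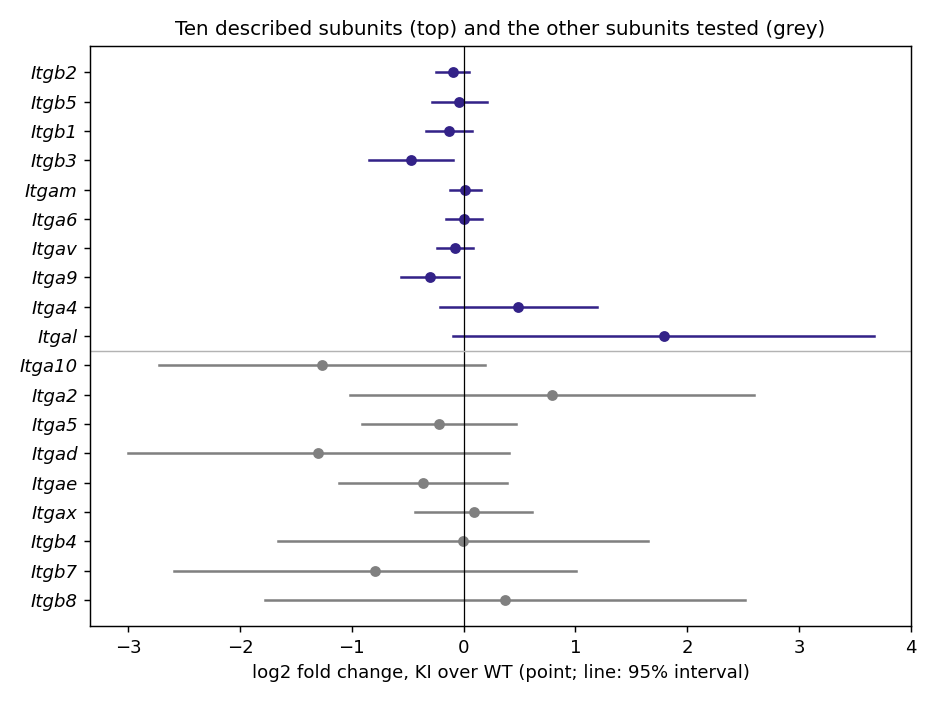
Log2 fold change of KI over WT for the 10 members (blue) and the 9 other integrin subunit genes with enough reads to test (grey); points are edgeR estimates and lines 95% intervals. Of the members, the intervals of Itgb3 and Itga9 alone leave out 0, both on the lower side, and those of Itga4 and Itgal are wide.

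Levels were compared between genes per kilobase of summed exon length, as means of the 8 libraries. Itgb2 led with 338 CPM per kilobase (range 303 to 375), followed by Itgb5 with 129.8, Itgb1 with 100.4, Itgam with 62.1, Itga6 with 46.9 and Itgav with 23.7. Itgb3 (6.02), Itga9 (5.14), Itga4 (0.314) and Itgal (0.101) lay further down, so the 3 leading subunits by this measure were beta chains. The libraries' ranges separated each neighbour from the next except Itgb3 from Itga9 and Itga4 from Itgal. The authors' deposited FPKM (values relative to library size and length) gave the same order. They rest on the same reads and on gene length too, so this is no separate check of the order or of the place of Itgam. Over the bases that no other gene shares, Itgam stood at 198 CPM per kilobase (range 184 to 209.5), which placed it at rank 2 of the 10 rather than at rank 4, above Itgb5 and Itgb1. That value assumes even coverage of the exons, which was not tested. Reads that cross from these bases into shared exons were also counted for neither gene, which lowers the value by an unknown amount.

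**Figure D4:**
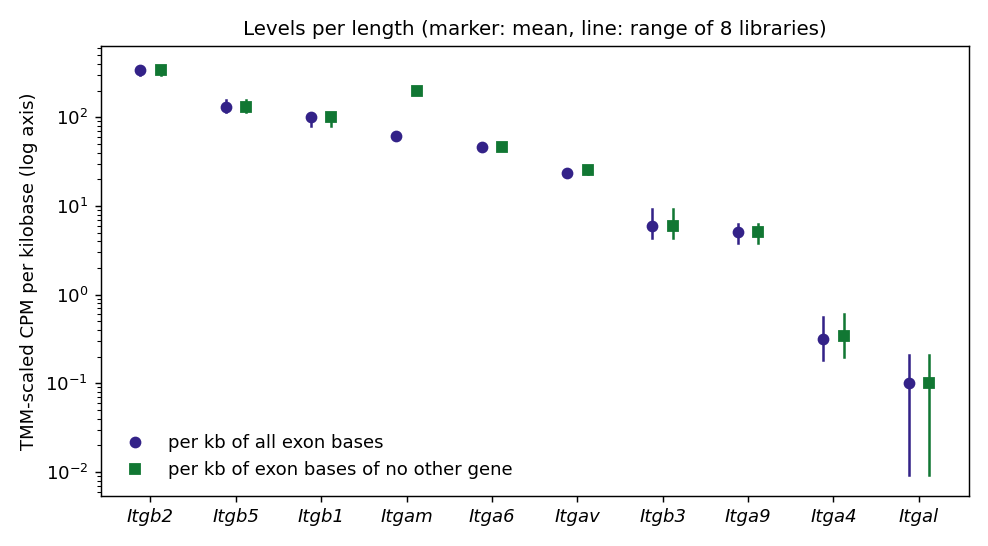
Levels of the 10 members per kilobase, as TMM-scaled CPM on a log axis; markers are means and lines the range of the 8 libraries. Circles divide by all exon bases and squares by the exon bases of no other gene; the 2 markers part for Itgam, 62.1 against 198 CPM per kilobase, and lie close together for the other genes.

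Partner genes were then set against each other within each library. Transcripts of Itgb2 exceeded those of Itgam 5.44-fold (range over the libraries 4.85 to 6.30) by the full exon lengths. This fold is inflated by the counting, since 3450 of the 5024 exon bases of Itgam could hold no counted read. By the unshared bases Itgb2 exceeded Itgam 1.70-fold (1.52 to 1.97). Reads that cross into shared exons are lost from this measure too, so the size of the lead of Itgb2 is not settled. Among the 4 alpha chains that pair with beta 2, Itgam made up 97.4% of the summed level per kilobase, or 99.1% by the unshared bases. These shares describe cells that were selected for CD11b, the product of Itgam. Itgb2 exceeded Itgal 5417-fold, but with a range of 1585 to 36827, since Itgal had 3 to 62 reads per library. Itgb1 exceeded Itga6 2.14-fold (1.65 to 2.45), Itgav 4.22-fold (3.70 to 4.71), Itga9 19.6-fold (16.8 to 21.8) and Itga4 335-fold (178 to 522). Against the sum of the 12 alpha chains that pair with beta 1, with Itgav in the sum, Itgb1 stood at 1.28-fold (1.02 to 1.42), and Itga6 made up 59.5% of that sum. Itgav was exceeded 5.45-fold (4.39 to 6.79) by Itgb5 and itself exceeded Itgb3 4.03-fold (2.82 to 5.20). Among the 5 beta chains of alpha v, Itgb5 made up 54.9% of the summed level (50.7 to 63.4), Itgb1 42.5% and Itgb3 2.56%, while Itgb8 and Itgb6 made up 0.0516% and 0.00595%. Since Itgb1 is shared with the other alpha chains above, these transcript shares do not give the make-up of alpha v pairs.

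The 8 alpha to beta ratios were compared between KI and WT by a 2-sided exact permutation test over the 70 assignments of libraries, and none passed. The smallest exact p possible is 0.0286, which becomes 0.229 for a single separated pair after adjustment over the 8 pairs, so this design could not call fewer than 5 pairs and does not show that the ratios were alike. For Itgam over Itgb2 the log2 ratios were −2.28, −2.66, −2.50 and −2.56 in WT and −2.53, −2.30, −2.40 and −2.32 in KI. The KI mean was 0.11 higher (exact p = 0.314, adjusted over the 8 pairs 0.419), and the groups overlapped. The difference was 0.058 without WT 504 and 0.18 without WT 503. The lowest p belonged to Itgav over Itgb3, with log2 ratios of 2.15, 1.50, 1.86 and 1.79 in WT and 2.07, 2.17, 2.38 and 2.17 in KI. The KI mean was 0.37 higher (exact p = 0.0571, adjusted 0.229), with WT 503 inside the KI range. The differences for Itgal over Itgb2 (2.36, exact p = 0.0857, adjusted 0.229) and Itga9 over Itgb1 (−0.16, exact p = 0.0857, adjusted 0.229) overlapped as well. The other 4 pairs differed by −0.04 (Itgav over Itgb5) to 0.60 (Itga4 over Itgb1), with exact p from 0.143 to 0.8.

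Within a group, the log2 ratio varied more from mouse to mouse than either gene alone in 3 of the 8 pairs (Itgam over Itgb2, Itgav over Itgb5 and Itga6 over Itgb1) and less than either in 1 (Itga9 over Itgb1). The SD of the log2 ratio of Itgam over Itgb2 within groups was 0.135, above the SD of Itgam (0.0746) and of Itgb2 (0.093) alone. For Itga9 over Itgb1 it was 0.0993, below the SD of Itga9 (0.153) and of Itgb1 (0.148). These are descriptions over 8 libraries, with no test.

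**Figure D5:**
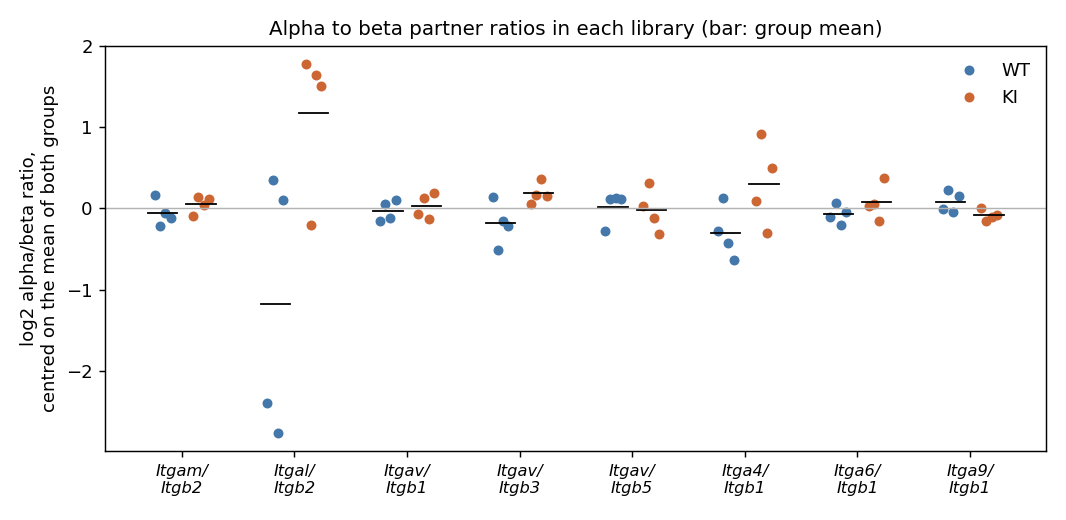
Log2 ratio of alpha over beta transcripts (CPM per kilobase) in each library, centred for each pair on the mean of both groups; points are libraries and bars group means. WT and KI points overlap in all 8 pairs, and Itgal/Itgb2 has the widest spread, with KI on average 2.36 higher.

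The other 16 integrin subunit genes were lower than most members. Of these, 9 could be tested, 0 were called and 0 had an unadjusted p under 0.05 in edgeR (7.79% of all genes). Itga5, the fibronectin receptor chain, averaged 13.3 ± 1.87 CPM in WT and 11.4 ± 5.83 CPM in KI, Itgax (CD11c) 7.14 ± 1.87 and 7.59 ± 1.26 CPM, and Itgae 4.47 ± 1.17 and 3.48 ± 1.32 CPM. Itga2, Itga10, Itgad, Itgb4, Itgb7 and Itgb8 lay between 0.0396 and 3.33 CPM in single libraries. Of the 9, the groups did not overlap for Itga10 alone (4.94% of all genes), at 0.739 ± 0.0772 CPM in WT and 0.305 ± 0.232 CPM in KI (log2 fold change −1.27, 95% interval −2.73 to 0.19; edgeR adjusted p = 0.699). Itga1, Itga2b, Itga3, Itga7, Itga8, Itga11 and Itgb6 did not pass the low-count filter.

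Genes that regulate integrin activation from inside the cell, activators and inhibitors together (23 in the list), did not pass the test. Of the 21 tested, 0 were called, 5 were lower and 0 higher at an unadjusted p under 0.05 (4.56% and 3.23% of all genes), the groups did not overlap for 2, both lower (2.6% of all genes), and the median log2 fold change was −0.14. Fermt3 (kindlin-3), which binds beta tails and is needed for the activation of leukocyte integrins, held 243, 259, 307 and 273 CPM in WT and 220.2, 206, 199 and 256 CPM in KI. KI 549 lay above WT 503, and the log2 fold change was −0.30 (95% interval −0.51 to −0.08; edgeR adjusted p = 0.554). Dok1, an adaptor that competes for beta tails, averaged 48.1 ± 10.4 and 32.5 ± 5.79 CPM (log2 fold change −0.57, edgeR adjusted p = 0.533). Rapgef1, an activator of Rap1, averaged 24.6 ± 2.02 and 19.8 ± 1.36 CPM, and Sharpin, an inhibitor that binds alpha tails, 64.5 ± 5.69 and 55.0 ± 2.71 CPM; both had no overlap between the groups and edgeR adjusted p-values of 0.598 and 0.6. The members of the list with the highest level per length, Rasgrp3 and Fyb, had log2 fold changes of 0.02 and 0.06.

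Genes of adhesion signalling, 32 in the list and 28 tested, did not pass it either. None was called by edgeR, 5 were lower and 0 higher at an unadjusted p under 0.05, against 4.56% and 3.23% of all genes. The groups did not overlap for 5, all lower (2.6% of all genes), and the median log2 fold change of the list was −0.11. Zyx (zyxin), a protein of focal adhesions, held 38.6, 39.6, 43.6 and 51.3 CPM in WT and 26.1, 31.2, 27.3 and 33.7 CPM in KI. Every KI library lay below every WT library, and the difference of −0.55 in log2 (SE 0.13, 95% interval −0.84 to −0.26) had an adjusted p of 0.507 in edgeR and of 0.00823 in DESeq2. Arhgef7 (beta-PIX), an exchange factor at adhesions, averaged 59.3 ± 6.90 and 43.6 ± 5.68 CPM, and Actn4, an actin crosslinker, 37.0 ± 3.51 and 25.4 ± 5.98 CPM, both without overlap (edgeR adjusted p = 0.507 and 0.553). Syk, the kinase that carries the signal of beta 2 integrins through ITAM adaptors, averaged 102.9 ± 6.37 and 82.8 ± 10.6 CPM (edgeR adjusted p = 0.548). Tyrobp (DAP12), its adaptor in microglia, averaged 581 ± 20.5 and 578 ± 20.2 CPM, and the Src-family kinase Lyn 631 ± 20.5 and 634 ± 42.0 CPM.

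Ligands of these integrins, 30 in the list and 23 tested, had a median log2 fold change of −0.02, with 0 called and 1 lower at an unadjusted p under 0.05, a share near the 4.56% of all genes. That gene was Icam1, a ligand of both LFA-1 and Mac-1, at 125.9 ± 9.88 CPM in WT and 103.8 ± 15.9 CPM in KI (log2 fold change −0.28, edgeR adjusted p = 0.604), with overlapping groups. F11r (JAM-A), another ligand of LFA-1, averaged 1462 ± 102 and 1321 ± 158 CPM, Spp1 (osteopontin), a ligand of alpha v, alpha 4 and alpha 9 integrins, 81.5 ± 18.8 and 103.5 ± 33.4 CPM, and Thbs1 (thrombospondin 1) 11.7 ± 2.86 and 14.8 ± 2.81 CPM.

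Surface partners and carriers of integrins, 18 in the list and 17 tested, had 0 calls. At an unadjusted p under 0.05, 3 were higher and 0 lower (3.23% and 4.56% of all genes), and the median log2 fold change was 0.04. Rab21, a GTPase of integrin traffic, held 51.6, 43.5, 43.6 and 41.3 CPM in WT and 53.0, 55.7, 52.3 and 55.0 CPM in KI, and did not overlap (log2 fold change 0.26, edgeR adjusted p = 0.584). Rab11a, of recycling endosomes, averaged 280.9 ± 17.5 and 310.5 ± 11.7 CPM, again without overlap, against 2.34% of all genes that were higher without overlap (edgeR adjusted p = 0.629). The tetraspanin Cd9 averaged 1475 ± 89.6 and 1626 ± 93.3 CPM (edgeR adjusted p = 0.633), its relative Cd81 5514 ± 335 and 5659 ± 491 CPM, and Nrros, which anchors latent TGF-beta on microglia for release by alpha v integrins, 579 ± 88.4 and 461 ± 112 CPM (log2 fold change −0.33, edgeR adjusted p = 0.676).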

How the data were processed

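RNA from sorted microglia of 8 mice was sequenced, and groups and mouse numbers came from the labels. The submitters' processing notes name mm10, the aligner STAR (2.7.5c), edgeR and limma under R 3.6.0, featureCounts (2.0.3) and SAMtools (1.9). The deposited counts were made, per the file headers, by featureCounts over exons summed by gene, without a strand option or an option to share reads between genes, so a read on exons of 2 genes counts for neither. Both mates can count; 68.9% to 70.8% of low counts were even. The authors also deposited FPKM. Symbols came from the GENCODE annotation for 54409 of 54532 identifiers; the other 123 held 0.0029% of reads. Another 8 columns of the table match no label and were not used.

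The test of KI against WT used edgeR 4.0.16 (R 4.3.3) with TMM, filterByExpr (minimum count 10, minimum total 15), robust quasi-likelihood test, group as the only term, Benjamini-Hochberg adjustment over all 17291 genes kept, and adjusted p under 0.05 as a call. The fitting code was tested on simulated data; a first criterion, on the number of changed genes called, was not met and was replaced, after this was seen, by criteria on the estimates and on false calls, with the code unchanged. Ratios of partner genes used CPM per kilobase and an exact permutation test. Alternatives were DESeq2 1.42.0, edgeR's likelihood ratio test, limma 3.58.1 (voom on the counts, and log2(FPKM + 1) or log2(FPKM + 0.1)), other scalings, no filter and each library left out; the use of unshared exon bases was added after the data were seen. The members and lists were chosen with earlier results of these data known. Named besides the members were the tested integrin genes, the sort genes and, per list, the 4 genes with the smallest p among those of at least 5 CPM and the 2 with the highest level per length. The labels give each library its own mouse. Intervals are 95% intervals, and limits from 3 reads cover counting error only, since reads are not independent molecules.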

Additional observations from a re-analysis of the deposited data

Results flagged for a closer look

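A library counted as standing apart when its gap to the nearest of the other 3 of its group exceeded 0.829 of the group's range (Dixon's 95% value for 4 samples). Of 116 groups examined 11 did so, and chance gives about 5%. Among the partner ratios, Itgal over Itgb2 was −12.60 (log2) in KI 526 against −10.90 to −10.63 in the other KI libraries, and Itgav over Itgb5 was −2.72 in WT 503 against −2.33 to −2.32. Among the low integrin genes, Itga2 was at 1.06 CPM in KI 528 (others at most 0.223), Itgad at 0.320 CPM in KI 526 (others at most 0.0893), Itgae at 6.22 CPM in WT 503 (others at most 4.08), Itgb4 at 1.29 CPM in WT 504 (others at most 0.258) and Itgb8 at 3.33 CPM in KI 513 (others at most 1.05). Tyrobp was at 548 CPM in KI 526 (others 584 to 591) and Cd9 at 1341 CPM in WT 506 (others 1511 to 1527). Summed neutrophil markers were 19.8 CPM in WT 504 (other WT libraries at most 1.57), and summed lymphocyte markers were 5.70 CPM in KI 528 (other KI libraries at most 0.452).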

How the results depend on the processing

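No member was called under any setting run. Genes called over the whole table were 0 in edgeR's quasi-likelihood test (1347 at an unadjusted p under 0.05), 248 of 37254 genes in DESeq2, run without the low-count filter (75 higher and 173 lower in KI; 229 of the 248 are among the genes of the edgeR test), 42 in edgeR's likelihood ratio test (8 and 34) and 1 in limma on log2(FPKM + 1), with 0 under the other settings; the cause was not tested. DESeq2 called 1 gene of adhesion signalling, Zyx. Itga6, Itgam and Itgb5, with changes near 0, changed sign under some settings: Itga6 was at −0.0040 on each of the FPKM scales (pseudocounts 1 and 0.1, and 1 without the filter) and at −0.0066 with total-count scaling. When single libraries were left out, the log2 fold change of Itga6 ran from −0.034 to 0.056, that of Itgam from −0.0099 to 0.048 and that of Itgb5 from −0.11 to 0.058, and the difference in Itgav over Itgb5 ran from −0.15 to 0.058 (the last without KI 549). Other differences between partners that moved by over 1.5 times were Itgam over Itgb2 (0.058 to 0.18), Itgav over Itgb1 (0.0072 without KI 549 to 0.11), Itga6 over Itgb1 (0.046 without KI 549 to 0.22) and Itga4 over Itgb1 (0.40 without KI 526 to 0.80). Among single genes Itgb1 was at −0.05 without KI 549, Itgb2 at −0.06 without WT 504, and Itgav at −0.04 without WT 504 or KI 549 and at −0.14 without KI 526. By unshared exon bases Itgam took rank 2, Itgb5 rank 3 and Itgb1 rank 4 of the levels, because the length of Itgam falls from 5024 to 1574 bases. Itgal and Itga4 were below the filter on FPKM; on log2(FPKM + 1) without it, a scale that compresses low values, their changes were 0.15 and 0.11, against 1.79 and 0.49 in the count test. No paired analysis was possible because the groups share no mouse numbers. The few reads of Itgal (3 to 62 per library) limit its precision.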
